A study of Mus musculus with 6 samples.

Results

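Replication-dependent histone genes encode the bulk of the core histones H2A, H2B, H3 and H4 and the linker histone H1, and they lie in clusters of many similar copies. Members were all rows of the deposited table whose gene symbol starts with Hist1h, Hist2h, Hist3h or Hist4h, chosen by name and not by value. They were 70 of 30037 named genes. Cluster 1 on chromosome 13 held 56 of them, cluster 2 on chromosome 3 held 10, cluster 3 on chromosome 11 held 3 and cluster 4 on chromosome 6 held 1. By type there were 6 H1, 20 H2A, 19 H2B, 12 H3 and 13 H4 rows. GENCODE M21 classes Hist1h2aj, Hist1h2al and Hist3h2bb-ps as pseudogenes, and of these Hist1h2aj was tested. Clusters follow the symbol, and Hist1h2al (chr13:51202727-51203065) lies far from the other cluster 1 members. In 63 of the 70 the deposited value was at least 1 in at least 3 libraries, and these were tested.

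The study compared L-GMP cells, a progenitor-like population sorted from bone marrow leukaemia cells, between wild-type (WT) and Prmt6-/- mice with acute myeloid leukaemia (AML). Prmt6 encodes an arginine methyltransferase that modifies histone tails. Each genotype had 3 libraries, from mice 8 to 10 weeks old. The oncogene or transplant that produced the leukaemia, the cells that carry the deletion and the number of animals per library are not given in the labels used here. The p-values therefore describe variation among these libraries alone, which may be technical. RNA was poly(A)-selected on oligo(dT) beads, fragmented, primed with random primers and amplified for 15 PCR cycles, per the labels.

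Most histone mRNAs of this family are made in S phase, have no introns and end, unlike other mRNAs, in a short stem-loop in place of a poly(A) tail. NPAT drives their transcription, U7 snRNP and a cleavage complex cut the transcript just after the stem-loop, and stem-loop binding protein (SLBP) holds the loop through export, translation and decay. Oligo(dT) selection therefore retains mainly the polyadenylated transcripts of these genes, which are known from differentiating and resting cells and from failed stem-loop processing. The levels below are of RNA that passed that selection, and they are not a measure of total histone mRNA. In bulk RNA, fewer cells that express a gene and less RNA per cell cannot be told apart. The gene copies are also near-identical, so a value of a single copy depends on how reads that match several copies were divided.

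The stem-loop was searched on the transcript strand of GENCODE M21 models (GRCm38) as GGCNCTTTTNAGNGCC. It was present in 42 of the 70 members, against 45 of 21877 protein-coding genes in all (0.206%), of which 3 were not members. Models without it include short ones, such as Hist1h2ai (393 bases) and Hist1h2bl (381 bases), which may stop before a stem-loop. Absence from a model therefore does not show that the gene lacks it. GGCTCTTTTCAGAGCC was the form of 26 members, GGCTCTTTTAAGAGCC of 6 and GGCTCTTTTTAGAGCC of 1, Hist2h2ac, and none of these is an H4 gene. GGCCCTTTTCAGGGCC was found in 7 members and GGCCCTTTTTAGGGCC in 2, all of them H4 genes. The windows below are shown because they mark where stem-loop processing ends the RNA, an end that oligo(dT) beads do not select. They come from called members of different types and, last, from an H4 gene that was not called. The models of Hist1h1c and Hist1h4i run on for 840 and 330 bases after the stem-loop, so there it is internal to the model. The capitals are the stem-loop, each window is 30 bases, and the DNA letters run 5′ to 3′ along the transcript:
Hist2h2aa2: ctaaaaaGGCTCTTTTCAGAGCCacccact
Hist1h2bj: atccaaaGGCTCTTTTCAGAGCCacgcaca
Hist1h2bk: caccaaaGGCTCTTTTAAGAGCCactaaac
Hist2h2ac: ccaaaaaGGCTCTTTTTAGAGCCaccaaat
Hist1h4n: aactaaaGGCCCTTTTCAGGGCCatccaat
Hist1h1c: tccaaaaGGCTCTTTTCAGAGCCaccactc
Hist1h4i: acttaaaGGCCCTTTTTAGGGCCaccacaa

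Prmt6 itself (chr3:110246109-110250998, GRCm38) checks the labels. Its deposited log2 value was 7.82, 7.60 and 7.41 in WT replicates 1 to 3 and 5.42, 5.46 and 5.48 in the Prmt6-/- replicates, a difference of -2.16 (limma SE 0.10, adjusted p = 3.57e-06). The groups did not overlap. In the authors' deposited table its log2 fold change was -7.66. The deposited scale compresses low values. Library medians over the 15454 tested genes lay between 7.72 and 7.75, and correlations within a genotype (Pearson r of at least 0.9987) were above those between genotypes (at most 0.9961). Of 12 L-GMP markers 3 rose in the knockout (Ctsg, Elane and Meis1) and 2 fell (Fcgr2b and Itgam). The summed linear level of the 12 was 195597 to 264269 in WT and 356722 to 395108 in knockout libraries, without overlap. By single gene, 6 differences were below 0 and 6 above, with a median of -0.01. The sum therefore does not show a rise of the 12 as a set. Among B cell markers 2 of 4 tested fell (Cd79b and Ighm), and the summed linear level of the 5 listed was 1272 to 1617 in WT and 491 to 768 in knockout libraries. For the 8 T and NK cell markers, 5 tested, 2 fell (Lck and Nkg7) and 1 rose (Cd3d), with sums of 1517 to 2784 and 602 to 1531. Pax5, Cd3e and Ncr1 stayed under 1 on the log2 scale in every library, and Trac was listed at 0. Mature neutrophil markers fell in 1 and rose in 2 of 9, monocyte markers fell in 2 and rose in 2 of 8, erythroid markers rose in 1 of 7, and limma called 0 of 4 megakaryocyte markers (0 at an unadjusted p under 0.05 and 0 in the authors' table). Summed levels of the neutrophil list were 1170 to 1347 in WT and 1362 to 2204 in knockout libraries, of the monocyte list 8919 to 9347 and 8122 to 9451, of the erythroid list 68.3 to 69.0 and 69.7 to 73.6, and of the megakaryocyte list 57.7 to 60.6 and 60.2 to 61.5. Over all tested genes 18.0% fell and 15.0% rose, which is the background for these small counts of markers. The part of these marker changes in the histone results was not tested.

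Histone RNA that passed poly(A) selection was lower in the Prmt6-/- libraries across the family. In limma's test with Benjamini-Hochberg adjustment over all genes, 37 of the 63 tested members fell, 0 rose and 26 were not called. Over all tested genes 18.0% fell and 15.0% rose, 33.0% in either direction. No member had a positive difference at an unadjusted p under 0.05, while 43 had a negative one. By the adjusted p of the authors' deposited table, at the same threshold, 34 members were lower and 0 were higher, with 0 higher at an unadjusted p under 0.05, against 17.5% lower and 13.6% higher among the same tested genes. Of those calls 32 were shared, 5 were made by limma alone and 2, Hist1h2ap and Hist1h4d, by the authors' table alone. The median difference, knockout minus WT on the deposited log2 scale, was -0.17 over the members and 0.01 over all tested genes, and 57 of 63 members lay below 0.

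The 3 knockout libraries were all below the 3 WT libraries in 42 of 63 members, against 24.4% of all tested genes. They were all above in 2 members, Hist1h3d and Hist4h4, against 23.0%, and 47.4% of tested genes had separate groups in either direction. Neither of those was called: Hist1h3d differed by 0.13 (SE 0.07, limma adjusted p = 0.194) and Hist4h4 by 0.13 (SE 0.06, limma adjusted p = 0.13). The count of lower members ranged from 26 to 41 over the processing alternatives with limma, and 23 members were lower in all 14 alternatives, the authors' table included. No alternative called a member higher, quantile, median and cyclic loess scaling included.

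**Figure D1:**
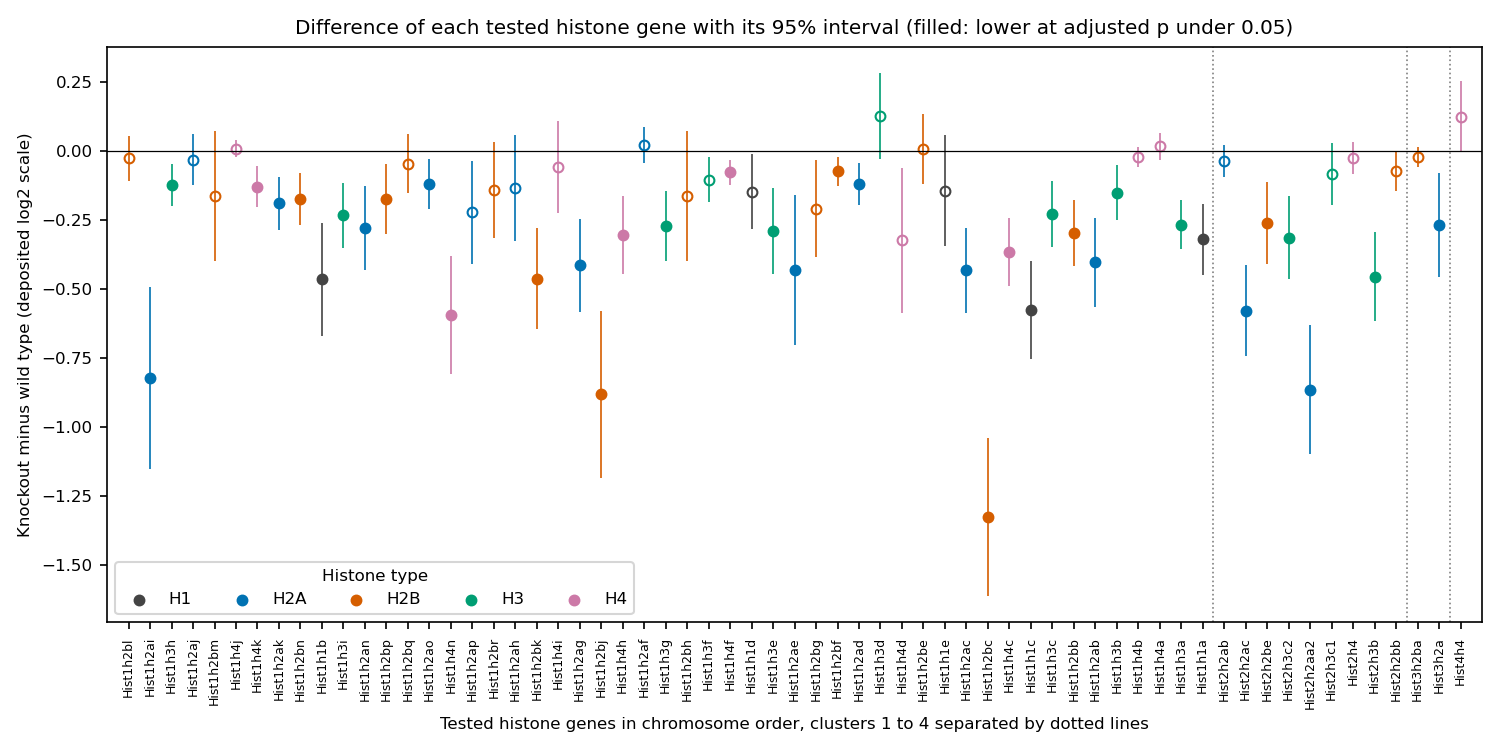
Difference of each of the 63 tested histone genes between knockout and wild type on the deposited log2 scale (y axis) in chromosome order (x axis), with limma's 95% confidence interval as a bar, the histone type as colour and a filled point for a gene lower at an adjusted p under 0.05. The 37 filled points lie between -1.33 and -0.07, no point above 0 is filled, and Hist1h2bc lies lowest.

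The deposited log2 scale compresses genes of low value. For the 12 lower members with a mean under 5 the difference was a median 0.0914 of the authors' deposited log2 fold change, and for the 6 with a mean of at least 8 it was 0.722. Differences of low genes below are therefore understated, and the authors' log2 fold change is given beside some of them. In the authors' deposited table the median log2 fold change of the tested members was -1.01, against 0.03 for all tested genes. By type it was -0.59 for H1, -0.90 for H2A, -1.01 for H2B, -1.25 for H3 and -0.63 for H4, an order unlike that of the median differences on the deposited scale given below. The share that fell was above that of other genes at every level. With a mean of 0 to under 4 it was 8 of 21 members, against 2.35% of genes of that level. From 4 to under 6 it was 13 of 20 against 11.1%, from 6 to under 8 it was 10 of 13 against 18.1%, and from 8 up it was 6 of 9 against 27.7%.

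Hist1h2bc, an H2B gene (chr13:23684199-23692908, plus strand), had the largest difference on the deposited scale. Its log2 value was 11.45, 11.51 and 11.37 in the WT libraries and 9.79, 10.20 and 10.36 in the knockout libraries. All 3 knockout libraries were more than 1 unit below every WT library, and knockout replicate 1 was lowest. It fell by 1.33 (SE 0.13, limma adjusted p = 9.91e-05), to 39.8% of the WT level on a linear scale. Its log2 fold change in the authors' deposited table was -1.50, and called members of lower level had larger changes there, among them Hist1h3a (-2.74) and Hist1h2ad (-2.36). An exact permutation test of this single gene returned p = 0.1, the floor for 3 libraries against 3. Its gene model has 1 transcript, of 1156 bases, which is shorter than the gene span and so is spliced. The model carries no stem-loop by the search used and was unique in 66.5% of its 31-base words. This model thus differs from the intronless, stem-loop form described as typical above. It does not show that the gene lacks a stem-loop transcript.

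Hist2h2aa2, an H2A gene of cluster 2 (chr3:96239749-96240276, minus strand), read 9.14, 9.16 and 9.03 in WT and 8.14, 8.10 and 8.49 in knockout libraries. Knockout replicate 3 was the highest of its group and still below every WT library. The gene fell by 0.86 (SE 0.10, limma adjusted p = 0.000319), to 54.9% of the WT level by the deposited values. Its exact permutation p was also 0.1. Its log2 fold change in the authors' deposited table was larger, -1.19. All 31-base words of its model occur in the model of its neighbour copy Hist2h2aa1, which was listed at 0 in all 6 libraries. They all occur as well in the model of Gm20633, which is not a member. Which of the copies the RNA came from cannot be read from these values.

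Hist1h2bj, an H2B gene (chr13:22043214-22043676), read 7.40, 7.62 and 7.48 in WT and 6.42, 6.48 and 6.95 in knockout libraries, a fall of 0.88 (SE 0.13, limma adjusted p = 0.00114). Hist1h2ai, an H2A gene (chr13:21716422-21716814), read 6.90, 7.01 and 7.11 against 5.98, 6.02 and 6.57, a fall of 0.82 (SE 0.15, limma adjusted p = 0.00261). In both genes knockout replicate 3 stood apart above the other knockout libraries, and no knockout value reached the lowest WT value. In the authors' deposited table their log2 fold changes were -1.74 and -1.89. Unique sequence was scarce in both models, with 32.8% of 31-base words in Hist1h2bj and 7.99% in Hist1h2ai found in no other gene.

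**Figure D2:**
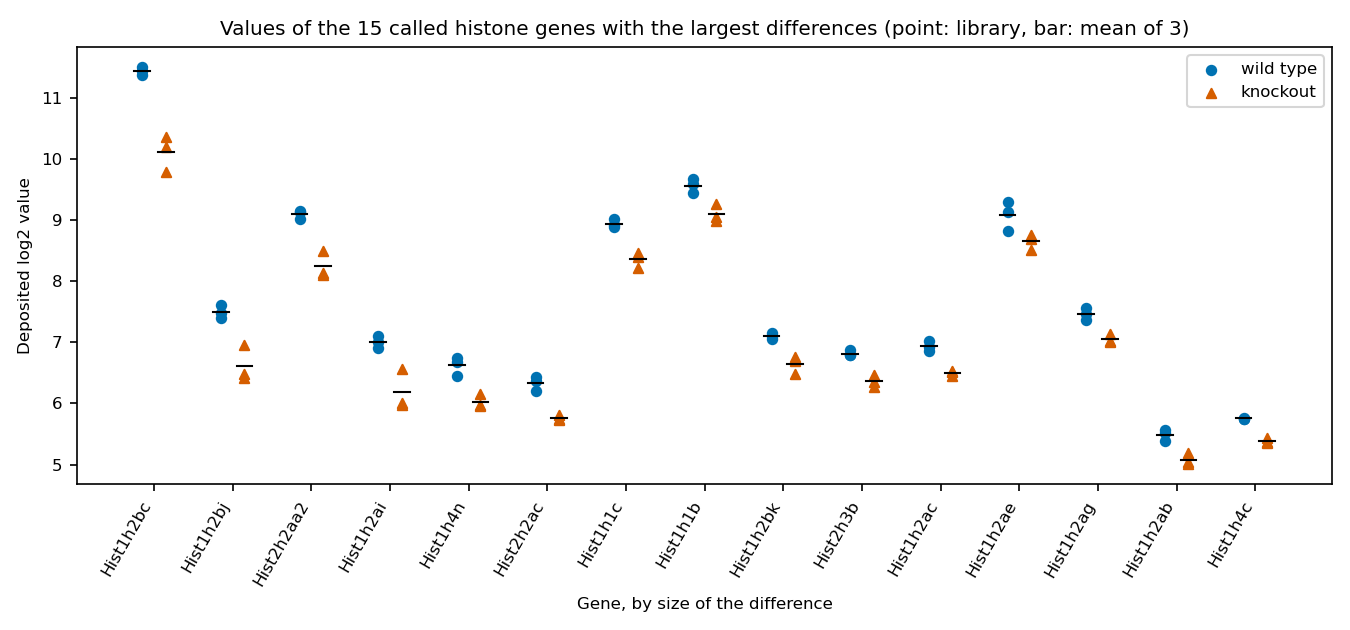
Deposited log2 value (y axis) of the 15 called histone genes with the largest differences (x axis, in order of the difference), with a circle for each wild-type library, a triangle for each knockout library and a bar at the mean of 3. The 15 were chosen among called genes whose groups do not overlap, so the separation of triangles from circles is a condition of the choice, and the differences run from Hist1h2bc (-1.33) to Hist1h4c (-0.37).

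As a type, linker histone genes had the most distinct sequences of the family by median. A median 96.2% of the 31-base words of the 6 H1 models were unique, against 19.2% for H2A, 43.7% for H2B, 36.9% for H3 and 52.1% for H4. Of 5 tested H1 genes 3 fell, and the median difference was -0.32. Hist1h1c read 8.88, 9.03 and 8.91 in WT and 8.40, 8.23 and 8.46 in knockout libraries, a fall of 0.58 (SE 0.08, limma adjusted p = 0.000626). Hist1h1b read 9.67, 9.59 and 9.44 against 9.27, 8.99 and 9.05, a fall of 0.46 (SE 0.09, limma adjusted p = 0.00431). The groups did not overlap in either gene. Hist1h1a, at 5.41, 5.47 and 5.41 against 5.06, 5.18 and 5.08, fell by 0.32 (SE 0.06, limma adjusted p = 0.0025). Hist1h1d differed by -0.15 (SE 0.06, limma adjusted p = 0.0932) and passed the threshold under 2 alternatives, limma without a trend and cyclic loess normalization. Hist1h1e differed by -0.14 (SE 0.09, limma adjusted p = 0.258), with overlapping groups. Its model overlaps that of Hist1h2be, 65.3% of its 31-base words were unique and 24.5% occur in Hist1h2be. The testis form Hist1h1t was between 0.00 and 0.03 in every library and was not tested.

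H2A genes fell in 12 of 17 tested, with a median of -0.27. Beside Hist2h2aa2 and Hist1h2ai, the largest differences were those of Hist2h2ac (-0.58), Hist1h2ac (-0.43), Hist1h2ae (-0.43), Hist1h2ag (-0.41) and Hist1h2ab (-0.40), with limma adjusted p from 0.000429 to 0.0225. Hist2h2ac read 6.43, 6.37 and 6.20 in WT and 5.72, 5.74 and 5.81 in knockout libraries, and Hist1h2ac read 6.93, 7.02 and 6.86 against 6.45, 6.53 and 6.52. Hist1h2ae read 9.30, 9.14 and 8.82 against 8.76, 8.51 and 8.70. In the last of these WT replicate 3 lay just above knockout replicate 1. Without WT replicate 1, WT replicate 2 or knockout replicate 2 Hist1h2ae was not called (limma adjusted p = 0.0745, 0.0708 and 0.0877, and as low as 0.00245 in the other alternatives, the authors' table included).

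Hist1h2ap had the highest deposited value of the family, 13.65, 14.00 and 13.79 in WT and 13.64, 13.51 and 13.62 in knockout libraries. WT replicate 1 and knockout replicate 1 nearly coincided. Its difference of -0.22 (SE 0.08) missed the limma threshold at an adjusted p of 0.0676, it was -0.30 with an adjusted p of 0.017 without WT replicate 1, and the authors' deposited table gives an adjusted p of 0.0247, while over all alternatives the adjusted p reached 0.35. Of its 31-base words 93.4% occur in Hist1h2ao, whose value was 4.40 to 4.46 in WT and 4.30 to 4.31 in knockout libraries. Hist1h2ao was called lower at an adjusted p of 0.0495 and lost the call in 10 of 14 alternatives. These near-identical copies carry very unequal values, and the split between them is uncertain.

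H2B genes fell in 8 of 17 tested, with a median of -0.16. After Hist1h2bc and Hist1h2bj came Hist1h2bk, at 7.06, 7.15 and 7.10 in WT and 6.69, 6.48 and 6.76 in knockout libraries, a fall of 0.46 (SE 0.08, limma adjusted p = 0.00249). Without WT replicate 2 the count was 5, and without knockout replicate 2 it was 4. The 17 rows are not all separate measurements: Hist1h2bm and Hist1h2bh hold the same value in each of the 6 libraries, although 24.7% of the 31-base words of the first and 7.40% of those of the second are shared between them. Both differed by -0.16 (limma adjusted p = 0.268).

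H3 genes fell in 9 of 12 tested, with a median of -0.23. Hist2h3b read 6.79, 6.88 and 6.79 in WT and 6.34, 6.28 and 6.47 in knockout libraries, a fall of 0.45 (SE 0.07, limma adjusted p = 0.00133). The groups did not overlap. None of its 31-base words was unique to its model, and all of them occur in the model of Gm20628, which is not a member.

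H4 genes fell in 5 of 12 tested and, without WT replicate 2, in 3, with a median of -0.07 over all libraries. Hist1h4n read 6.44, 6.69 and 6.75 in WT and 5.97, 5.97 and 6.16 in knockout libraries, a fall of 0.59 (SE 0.09, limma adjusted p = 0.00142). Of its 31-base words 85.2% occur in Hist1h4m, which was listed at 0. Hist1h4c read 5.75, 5.77 and 5.75 against 5.36, 5.37 and 5.44, a fall of 0.37 (SE 0.05, limma adjusted p = 0.000993), and 77.8% of its words were unique. Hist1h4d, among the 5 highest deposited values of the family, read 9.28, 9.33 and 8.91 against 8.94, 8.91 and 8.69. WT replicate 3 lay inside the knockout range, and the difference of -0.32 (SE 0.12) had a limma adjusted p of 0.0614. It was -0.45 with an adjusted p of 0.00672 without WT replicate 3, and the authors' deposited table gives an adjusted p of 0.025, while over all alternatives it reached 0.192.

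Summed on a linear scale, with no correction for gene length, the 70 members came to 21925 to 25618 in the WT libraries and 17317 to 18674 in the knockout libraries. The knockout mean was 77.5% of the WT mean, and 64.8% without Hist1h2ap. By type it was 75.8% for H1, 83.5% for H2A (70.7% without Hist1h2ap), 48.5% for H2B, 85.2% for H3 and 81.7% for H4. The ranges of the genotypes did not overlap in any of these sums. They add deposited values, in which low genes are compressed, so they understate the fall of low genes. H3, with the highest percentage here, had the largest median fall by the authors' deposited log2 fold change (-1.25, against -0.59 for H1). The percentages therefore do not rank the types. The H2B sum ranged from 3408 to 3716 in WT and from 1467 to 1962 in knockout libraries, and Hist1h2bc alone had 2655 to 2918 and 885 to 1317. Without Hist1h2bc the H2B sum of the knockout was 78.0% of WT, with ranges of 752 to 797 and 570 to 646.

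Along chromosome 13 the fall was not limited to 1 stretch of the cluster. A block of 19 members within 122 kb (chr13:21715763-21837530) had 11 lower of 18 tested, a block of 5 within 8.51 kb (chr13:22035164-22043676) had 3 of 5, and the block of 29 within 233 kb (chr13:23531050-23764406) had 17 of 28. Their median differences were -0.17, -0.41 and -0.22. Cluster 1 as a whole had 31 lower of 51 tested, with a median of -0.17. Cluster 2 had 5 lower of 9, with a median of -0.26. It spans chr3:96219865-96270132, 14.0 Mb from Prmt6 on the same chromosome. In cluster 3, Hist3h2a fell by 0.27 (SE 0.08, limma adjusted p = 0.0362) and Hist3h2ba differed by -0.02. The Hist3h2a call was lost with quantile normalization and when WT replicate 1, WT replicate 2, knockout replicate 1 or knockout replicate 2 was left out. Hist4h4, the single row of cluster 4, read 5.60, 5.64 and 5.69 in WT and 5.72, 5.76 and 5.82 in knockout libraries.

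H2A and H2B genes often sit head to head and are transcribed outward from a shared short promoter. With start sites at most 500 bases apart, 14 such pairs were found, with 172 to 305 bases between them, and in 12 both genes were tested. Both fell in 6 pairs, 1 gene fell in 4 and neither in 2. In the pair Hist1h2ac and Hist1h2bc, 250 bases apart, the differences were -0.43 and -1.33. In Hist1h2ag and Hist1h2bj, 269 bases apart, they were -0.41 and -0.88. In Hist2h2ac and Hist2h2be, 238 bases apart, they were -0.58 and -0.26, and the second was not called without WT replicate 2 or knockout replicate 2 (limma adjusted p = 0.0511 and 0.0551, and from 0.00765 in the others).

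The other 3 pairs in which both genes fell had small differences on this scale. Hist1h2ak and Hist1h2bn differed by -0.19 and -0.17, Hist1h2an and Hist1h2bp by -0.28 and -0.17, and Hist1h2bf and Hist1h2ad by -0.07 and -0.12. In the authors' deposited table the log2 fold changes of Hist1h2ak and Hist1h2bn were -2.11 and -1.81. Not all of these calls were stable. That of Hist1h2bf was lost in 11 of 13 alternatives, of Hist1h2bp in 8 of 14, of Hist1h2ad in 6 of 13 and of Hist1h2bn in 1 of 14, without knockout replicate 2.

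In other pairs 1 partner was called. Hist1h2ai fell by 0.82 while Hist1h2bl, 278 bases away, differed by -0.03 (95% interval -0.11 to 0.05, limma adjusted p = 0.613). Hist1h2bk fell by 0.46 beside Hist1h2ah at -0.13 (limma adjusted p = 0.265), and Hist1h2ae fell by 0.43 beside Hist1h2bg at -0.21 (limma adjusted p = 0.071). For the last pair the authors' deposited log2 fold changes were -0.60 and -0.55, and for the first they were -1.89 and -0.36. Hist1h2bl was at 3.43 to 3.51 in WT and 3.42 to 3.49 in knockout libraries, a range in which differences are compressed. Hist1h2bq and Hist1h2ao differed by -0.05 and -0.12, of which the second was called. In the pairs with no call, Hist1h2aj and Hist1h2bm differed by -0.03 and -0.16, and Hist1h2ap and Hist1h2br by -0.22 and -0.14. The difference between partners was not itself tested.

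**Figure D3:**
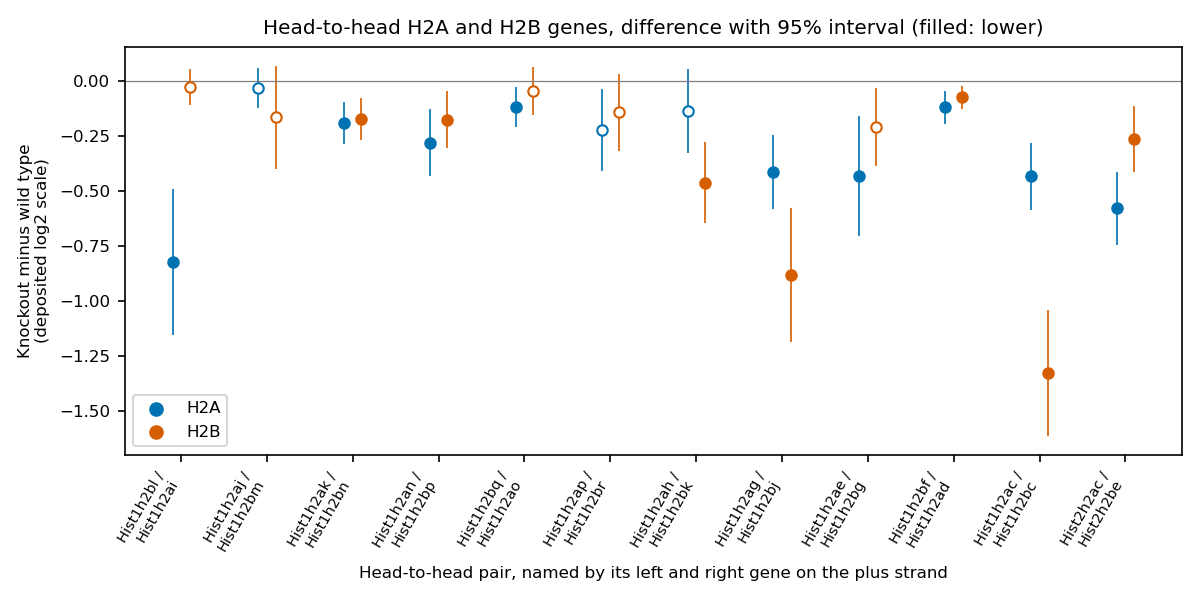
Difference between knockout and wild type on the deposited log2 scale (y axis) for the 12 head-to-head H2A and H2B pairs with both genes tested (x axis), with limma's 95% confidence interval as a bar and a filled point for a gene called lower. Both points are filled in 6 pairs, and the H2B gene lies far below its H2A partner in Hist1h2ac and Hist1h2bc.

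Promoters of the family were taken from RefSeq (GRCm38.p6) as the 250 bases before the start site, and 62 of 70 members had one. The motif CCAAT, read on both strands, was in 82.3% of them and in 34.5% of 27025 promoters of the same length over all genes. TATAAA was in 46.8% against 13.0%, and the octamer ATTTGCAT in 21.0% against 1.61%. None of these motifs contains another. CCAAT was present in all 6 H1, all 18 H2A and all 16 H2B promoters, in 8 of 10 of H3 and in 3 of 12 of H4. The octamer was found in 7 of 18 H2A and 6 of 16 H2B promoters. Head-to-head partners share promoter bases, as Hist1h2ag and Hist1h2bj do. With motifs read on both strands, the same match can count under both types, so these promoters are not all separate. CCAAT was in 29 of 34 promoters of members that fell and in 18 of 23 of tested members that were not called, and TATAAA in 18 of 34 and 8 of 23. The promoters of 3 of the members with the largest falls follow, with CCAAT or its reverse complement ATTGG in capitals, at chr13:22042948-22043197 (plus strand), chr13:21716162-21716411 (plus strand) and chr3:96240375-96240624 (minus strand). Hist1h2bj has 5 matches, Hist1h2ai 4 and Hist2h2aa2 1:
Hist1h2bj: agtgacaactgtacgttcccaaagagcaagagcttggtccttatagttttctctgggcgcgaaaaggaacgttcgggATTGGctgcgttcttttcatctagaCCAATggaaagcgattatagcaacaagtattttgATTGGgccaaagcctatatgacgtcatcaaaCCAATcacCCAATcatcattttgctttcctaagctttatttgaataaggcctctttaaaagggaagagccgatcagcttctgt
Hist1h2ai: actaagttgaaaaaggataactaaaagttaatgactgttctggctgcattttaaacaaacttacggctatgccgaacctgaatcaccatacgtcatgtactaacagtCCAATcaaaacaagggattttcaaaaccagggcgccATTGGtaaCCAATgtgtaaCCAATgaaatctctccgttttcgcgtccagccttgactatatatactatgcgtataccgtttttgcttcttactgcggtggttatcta
Hist2h2aa2: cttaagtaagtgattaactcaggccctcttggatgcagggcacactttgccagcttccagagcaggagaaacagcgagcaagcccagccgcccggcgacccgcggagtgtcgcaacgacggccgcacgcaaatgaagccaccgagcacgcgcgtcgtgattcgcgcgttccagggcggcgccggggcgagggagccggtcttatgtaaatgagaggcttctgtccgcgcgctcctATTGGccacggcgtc

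Members were then grouped by how their gene model ends, since poly(A) selection acts on the 3′ end. The classes are exclusive. The 15 members whose model has AATAAA, the main polyadenylation signal, in its last 50 bases were set apart first, whether or not the model also holds the stem-loop, as 10 of them do. In 20 members the model has the stem-loop, no AATAAA in its last 50 bases and an end within 100 bases of the stem-loop, as in Hist2h2aa2, Hist1h2bj and Hist1h4n above, and 16 of the 18 tested fell, with a median of -0.28. The 2 not called were Hist1h2ap and Hist1h2bm. Where the stem-loop is followed by a longer model without that AATAAA, as in Hist1h4i (-0.06, limma adjusted p = 0.59), 4 of 12 fell, with a median of -0.19. In the AATAAA class, which holds Hist2h2be and Hist1h1c, the latter with the stem-loop printed above, 5 of 14 tested fell, with a median of -0.06. They were 4 of 9 with a stem-loop and 1 of 5 without. When AATAAA is left out of the grouping, 21 members end within 100 bases of a stem-loop, and 17 of the 19 tested fell, while 21 have a longer model, and 7 of the 20 tested fell. Of the 19 tested with neither feature, Hist1h2bc among them, 12 fell, with a median of -0.17. This class includes short models, such as that of Hist1h2ai, that may stop before the 3′ end of the RNA. In the authors' deposited table the median log2 fold change was -1.67 in the first class and -0.56 in the class with AATAAA. The median deposited values of those classes, 4.95 and 5.27, were close. Their median shares of unique 31-base words, 32.3% and 67.9%, were not. End class and copy uniqueness therefore cannot be told apart here. No test between the classes was run, and the models are GENCODE's, while the sources used here do not give the annotation the authors counted on.

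**Figure D4:**
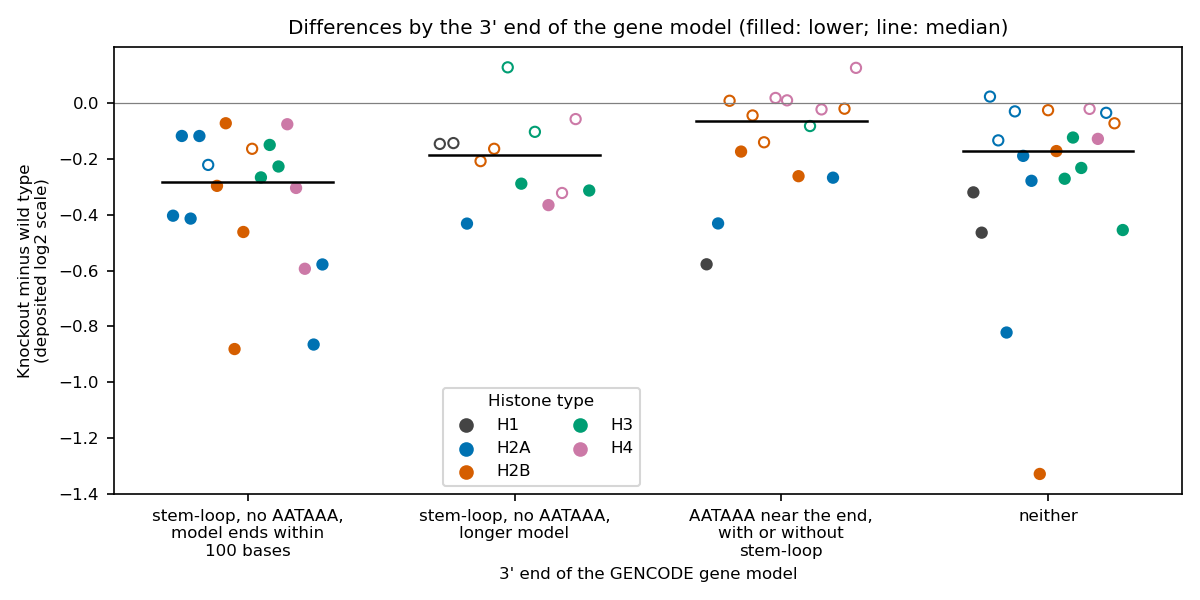
Difference between knockout and wild type on the deposited log2 scale (y axis) of the 63 tested histone genes by the 3′ end of their gene model (x axis), with the histone type as colour, a filled point for a gene called lower and a line at the class median. The classes are exclusive, and a model with AATAAA near its end is in that class with or without a stem-loop. The class with no AATAAA that ends within 100 bases of the stem-loop has 16 of 18 filled points and a median of -0.28, and the AATAAA class has 5 of 14 and a median of -0.06.

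Calls were made both among copies with little and among copies with much unique sequence. Of the 40 tested members with under 50% unique 31-base words 26 fell, with a median of -0.17, and of the 23 with at least 50% unique words 11 fell, with a median of -0.26.

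Genes around the family were taken from lists of known roles. The histone variants listed here do not carry a Hist1h to Hist4h symbol, and most of their mRNAs are polyadenylated. Their distance from the clusters was not examined. Of 11 tested, 4 fell (36.4%) and 1 rose (9.09%), with a median of -0.12. Of all tested genes 18.0% fell and 15.0% rose, and of those with a mean of at least 8 it was 27.7% and 18.0%, which is the background for the counts of these lists. H3f3a and H3f3b, which both encode H3.3, fell by 0.57 (SE 0.04) and 0.44 (SE 0.08), Cenpa, the centromeric H3, fell by 0.55 (SE 0.09) and H2afx, the H2A form phosphorylated at DNA breaks, fell by 0.34 (SE 0.05), with limma adjusted p from 3.34e-05 to 0.00266. H3f3a read 13.92, 13.94 and 13.99 in WT and 13.36, 13.42 and 13.35 in knockout libraries. H2afj, an H2A variant, read 11.16, 11.36 and 11.47 against 11.99, 11.96 and 11.91 and rose by 0.62 (SE 0.08, limma adjusted p = 0.000369). Neither gene's groups overlapped.

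Factors of histone gene transcription and 3′ processing fell in 5 (23.8%) and rose in 3 (14.3%) of 21 tested, with a median of -0.02, shares near the background. Slbp read 12.73, 12.83 and 12.81 in WT and 12.71, 12.73 and 12.72 in knockout libraries, and its difference of -0.07 (95% interval -0.17 to 0.03) was not called. Npat differed by -0.10 (95% interval -0.25 to 0.05) and was not called. Nelfe, a subunit of the pausing factor NELF, fell by 0.47, Cstf3 by 0.48 and Cpsf3, the endonuclease that cuts histone and other pre-mRNAs, by 0.31, with limma adjusted p from 0.000358 to 0.00303. Cpsf2, a partner of Cpsf3, fell by 0.25. Cpsf3l, the Integrator subunit related to Cpsf3, rose by 0.26 and Ncbp1, the large cap-binding subunit, by 0.18. Casp8ap2 rose by 0.17 (SE 0.06, limma adjusted p = 0.0436) and was not called in the authors' deposited table (adjusted p = 0.0668). Yy1 fell by 0.28 (SE 0.09, limma adjusted p = 0.0457). The count that rose was 1 without WT replicate 1, 2 or 3 or without knockout replicate 2, and Ncbp1 lost its call in 6 of 14 alternatives.

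Factors of histone mRNA translation and decay rose in 4 (26.7%) and fell in 2 (13.3%) of 15 tested, with a median of 0.15. The share that fell is near the background, and the share that rose is above it by under 2 genes. Zcchc11, one of the terminal uridylyltransferases that tag histone mRNA for decay, read 6.06, 6.12 and 6.55 in WT and 7.16, 7.15 and 7.14 in knockout libraries, a rise of 0.91 (SE 0.12, limma adjusted p = 0.000532). Eri1, the exonuclease that trims the stem-loop end, rose by 0.29 (SE 0.05, limma adjusted p = 0.00281). Zcchc6, another uridylyltransferase, rose by 0.35 and Lsm1, of the decay ring, by 0.18. Mif4gd, the SLBP partner in translation, read 9.53, 9.76 and 9.50 against 8.78, 8.91 and 8.99 and fell by 0.70 (SE 0.08, limma adjusted p = 0.000336). Lsm4 fell by 0.21. The calls of Zcchc6 and Lsm4 were each lost in 3 and that of Lsm1 in 4 of 14 alternatives. The count that rose was 2 without knockout replicate 2, and the count that fell was 1 without WT replicate 2 or knockout replicate 2.

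Histone chaperones and assembly factors fell in 8 (36.4%) and rose in 3 (13.6%) of 22 tested, with a median of -0.07. Hat1, the acetyltransferase of newly made H4, read 11.57, 11.55 and 11.55 in WT and 10.21, 10.34 and 10.59 in knockout libraries and fell by 1.18 (SE 0.09, limma adjusted p = 3.39e-05). Ssrp1, a subunit of FACT, fell by 0.81 (SE 0.06, limma adjusted p = 3.64e-05). Nasp, which holds soluble H3 and H4, fell by 0.42, Atrx by 0.35 and Asf1a by 0.35, while Asf1b, the proliferation-linked form of the same chaperone, rose by 0.39 (SE 0.05, limma adjusted p = 0.000626). S phase genes, the phase in which these histones are made, fell in 3 and rose in 3 of 25 tested (12.0% each), with a median of -0.04. Their summed linear level was 81364 to 86361 in WT and 82353 to 86151 in knockout libraries, so the ranges overlapped. Whether the share of cells in S phase differed between the genotypes was not tested.

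**Figure D5:**
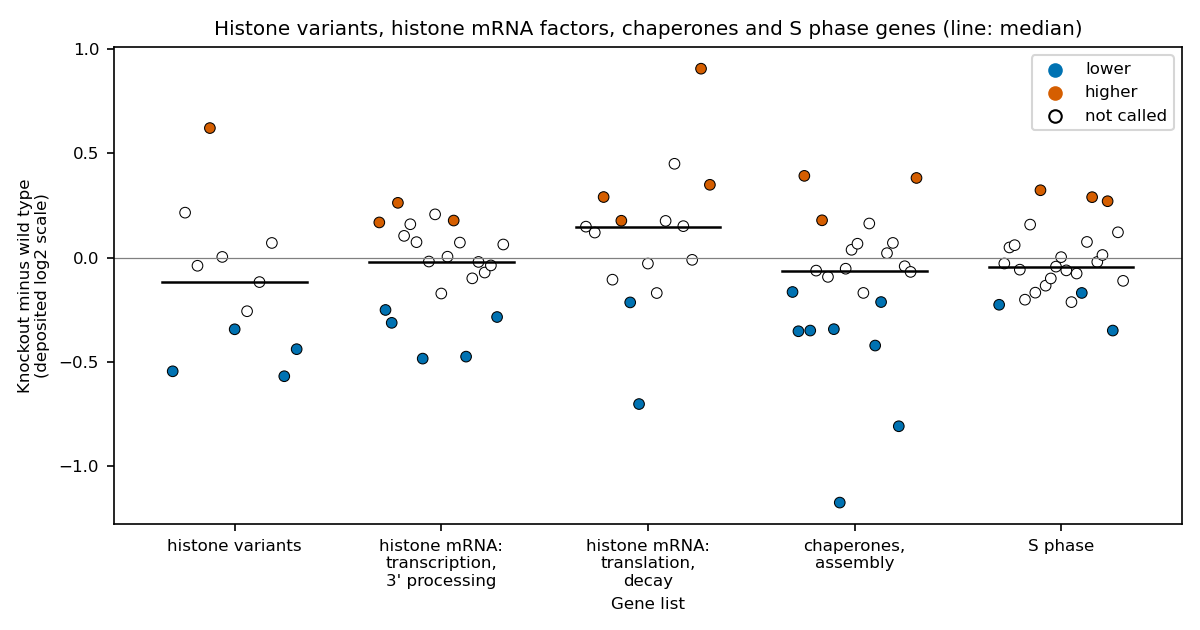
Difference between knockout and wild type on the deposited log2 scale (y axis) of tested genes in 5 lists (x axis): histone variants, histone mRNA transcription and 3′ processing, histone mRNA translation and decay, chaperones and assembly, and S phase genes. Blue points were called lower, orange higher, open points were not called and lines are medians, which run from -0.12 for the variants to 0.15 for translation and decay.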

How the data were processed

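RNA of 3 WT and 3 Prmt6-/- libraries was compared in a single deposited table. HOMER, kallisto, Trim Galore and GRCm38 appear in the submitters' processing notes, and HOMER's differential expression command in the file header. The authors normalized the values and put them on a log2 scale before deposit, by a transformation the header does not name, which pulls low genes together. For each gene the authors deposited a log2 fold change with raw and adjusted p-values of an unnamed test. Read depth is unknown, so no counting interval is given. The 1 row naming no gene (0.00333% of rows) was left out.

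limma 3.58.1 (R 4.3.3), with a trend of variance on mean, was fitted to the 15454 genes that reached 1 in 3 or more libraries, after a check on simulated data. Tests were two-sided, and a call means a Benjamini-Hochberg adjusted p under 0.05. A difference is knockout minus WT, with limma's standard error. Linear sums add 2 to the power of each value. Models, 31-base words (both strands, against all GENCODE M21 transcripts) and stem-loops came from GENCODE M21, and promoters from RefSeq. Head-to-head genes have start sites at most 500 bases apart. Blocks on a chromosome are split at gaps over 100000 bases.

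Members and lists were chosen with earlier results of these data known. Genes are named by rule: 2 given histone genes, the 15 called members with the largest differences and separate groups, the 5 highest means, the H1 genes, head-to-head pairs, up to 6 called genes per list and Prmt6. Hist1h3d, Hist4h4, Hist3h2a, Hist3h2ba, Hist1h4i, Hist1h2bh, Slbp, Npat, Casp8ap2, Yy1 and the members at 0 were named after their values were seen. Hist1h2al and Hist3h2bb-ps were named as pseudogenes. Alternatives were other filters, scalings, the replicate number as a block, each library left out and the authors' test. A listed marker is not reported here.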

Additional observations from a re-analysis of the deposited data

How the results depend on the processing

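Direction and side of the threshold held for the counts over all genes and the count of lower members, which was 34 with no filter, 30 with a minimum of 4, 35 without a trend, 38 with quantile, 32 with median and 41 with cyclic loess scaling, 26 to 33 with 1 library left out and 34 in the authors' table. Scaling moved the median of all genes by less than 0.1. The members' median difference was -0.28 with a minimum of 4, where 43 members were tested, and -1.01 in the authors' deposited table, whose fold changes are less compressed. With 1 library left out it ranged from -0.22 to -0.17. H4 genes lower were 3 with a minimum of 4 and, with 1 library left out, 3 to 5. H2B genes lower were 4 to 7, and cluster 3 genes lower 0 to 1, with 1 library left out. Cluster 3 had 0 with quantile normalization. Hist1h2bq, not called, ranged from -0.082 to 0.0017 with 1 library left out, turning positive without knockout replicate 2. Over the genes named by rule and the alternatives, 57 calls were lost and 9 were gained in the same direction. Fewer libraries or genes entered the fits with a stricter minimum or a library left out. For the other changes the cause was not tested.

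Replicate numbers are shared between the genotypes. Correlations of same-numbered libraries' deviations were 0.0948, 0.0727 and 0.172, not all above 0.1, so the number is not taken as a pairing, although every library correlated best with its own number. With the replicate block 35 members were lower (34 of them among the 37) and 0 were higher. It ended the calls of Hist1h2bf, Hist1h2bp and Hist1h2ao (limma adjusted p = 0.0535, 0.0676 and 0.081) and added Hist1h4d (0.00955). Unknown depth, 3 libraries per genotype and compressed low values limit what could be called. Near-identical copies, poly(A) selection and an unnamed annotation limit what single rows measure.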
